A study of Mus musculus with 2 samples.

Results

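The Ms4a members described here were 7 of the 32285 genes in the files: Ms4a7, Ms4a6b, Ms4a6c, Ms4a6d, Ms4a4a, Ms4a4b and Ms4a4c, matched by gene symbol. Ms4a genes encode small proteins that cross the membrane with 4 passes and sit in the surface and vesicle membranes of blood cells, where several bind other receptors and alter their signalling. Mouse myeloid cells and lymphocytes use different members, so the family is often used to tell macrophages, monocytes and lymphocytes apart. The best-known relative, Ms4a1, encodes the B cell antigen CD20. The members were chosen by gene name with earlier values of these libraries known, namely lower CPM of Ms4a7 and Ms4a6b in macrophages of the PKCi library. Those values are therefore a description, and no test between treatments could be made with 1 library per treatment.

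The data were single-cell RNA libraries of subcutaneous tumours grown from CMT167R cells, a mouse lung carcinoma line labelled as resistant to anti-PD1, in C57BL/6 mice. The PKCi library came from tumours of mice given 3 mg/kg PKCi daily by intraperitoneal injection, and the control library from mice given solvent. The tumour cells of both libraries were labelled wild type, and tumours were taken when the control tumours had reached 400 mm3. The number of mice behind each library is not given, so no replicate check exists for any difference below.

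The PKCi library held 7457 barcodes with 229219749 UMIs (unique molecules counted), and the control library 6688 barcodes with 222641855 UMIs. After filtering, 6996 cells of the PKCi library and 6229 of the control library remained, and 18 kept barcodes occurred in both. Clusters were named from marker genes that held no Ms4a gene, and the suffix "-like" marks such a name. The PKCi library had 496 macrophage-like, 506 monocyte-like, 119 T-like, 50 NK-like and 49 dendritic-like cells. The control library had 193 macrophage-like, 543 monocyte-like, 64 T-like, 36 NK-like and 22 dendritic-like cells. The main population of Krt8-positive cells (5337 cells in the PKCi library, 4883 in the control library) held the carcinoma cells.

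Levels are counts scaled to a common total (CPM): the UMIs of a gene summed over the cells of a class and library, over all UMIs of that sum, times 1e6. Brackets give exact 95% Poisson intervals, and intervals of ratios are exact conditional ones. Both cover counting error only, not the spread between animals. The assay reads the 3' end of each transcript, so CPM carries no length correction, and levels were compared between classes and libraries but not between genes.

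The 7 members lie within 283.8 kb of mouse chromosome 19 (GRCm38, 11321039 to 11604849). All are protein-coding. Ms4a7 (ENSMUSG00000024672, 11321039 to 11336146) and Ms4a6d (ENSMUSG00000024679, 11586604 to 11604849) are on the minus strand. Ms4a4a (ENSMUSG00000101389, 11375523 to 11392790), Ms4a4c (ENSMUSG00000024675, 11404770 to 11427246), Ms4a4b (ENSMUSG00000056290, 11443553 to 11467055), Ms4a6c (ENSMUSG00000079419, 11469366 to 11482192) and Ms4a6b (ENSMUSG00000024677, 11516512 to 11531256) are on the plus strand. Some members are close copies of each other. Transcripts of Ms4a4b and Ms4a4c share an identical stretch of 127 bases, those of Ms4a6b and Ms4a6c 96 bases, those of Ms4a6b and Ms4a6d 81 bases, and those of Ms4a6c and Ms4a6d 44 bases. All other pairs share at most 19 bases. The 96 shared bases lie 228 bases from the 3' end of the Ms4a6c transcript and 1293 bases from that of Ms4a6b, so reads of this pair could be split or lost in counting, and its values carry that uncertainty.

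RefSeq promoters (GRCm38.p6, 250 bases before to 50 after each start) were on hand for 6 of the 7 members. They are shown for the pairs whose promoters were most alike, and for Ms4a7, the member with the clearest macrophage pattern. The Ms4a6b and Ms4a6c promoters were 85.3% identical over 225 aligned bases, and the Ms4a4b and Ms4a4c promoters 81.9% identical over 281. Their positions are chr19:11518309-11518608 (Ms4a6b, plus strand), chr19:11469118-11469417 (Ms4a6c, plus strand), chr19:11443308-11443607 (Ms4a4b, plus strand), chr19:11407411-11407710 (Ms4a4c, plus strand) and chr19:11336097-11336396 (Ms4a7, minus strand, the upstream of its 2 starts). Each is written 5′ to 3′ on the strand of its gene, and capitals mark matches to 4 motifs searched on both strands. The motifs were picked after the sequences had been seen.
Ms4a6b: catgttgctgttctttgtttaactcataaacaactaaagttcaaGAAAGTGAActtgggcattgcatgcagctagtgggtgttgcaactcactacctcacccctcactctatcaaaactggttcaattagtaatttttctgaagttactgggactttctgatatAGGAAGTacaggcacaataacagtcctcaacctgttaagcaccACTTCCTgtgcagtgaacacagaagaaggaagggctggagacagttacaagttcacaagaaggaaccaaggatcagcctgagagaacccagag
Ms4a6c: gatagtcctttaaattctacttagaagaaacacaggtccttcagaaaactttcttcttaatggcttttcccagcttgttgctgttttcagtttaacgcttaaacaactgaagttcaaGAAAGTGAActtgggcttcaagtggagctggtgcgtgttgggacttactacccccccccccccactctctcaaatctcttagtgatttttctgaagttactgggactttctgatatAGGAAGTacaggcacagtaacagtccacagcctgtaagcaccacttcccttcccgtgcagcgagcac
Ms4a4b: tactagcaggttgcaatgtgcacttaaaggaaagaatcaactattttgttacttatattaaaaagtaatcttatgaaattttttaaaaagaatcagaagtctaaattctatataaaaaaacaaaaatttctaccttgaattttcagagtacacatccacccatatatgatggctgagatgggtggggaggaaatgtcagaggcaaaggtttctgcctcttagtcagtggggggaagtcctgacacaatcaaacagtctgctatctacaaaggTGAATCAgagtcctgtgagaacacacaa
Ms4a4c: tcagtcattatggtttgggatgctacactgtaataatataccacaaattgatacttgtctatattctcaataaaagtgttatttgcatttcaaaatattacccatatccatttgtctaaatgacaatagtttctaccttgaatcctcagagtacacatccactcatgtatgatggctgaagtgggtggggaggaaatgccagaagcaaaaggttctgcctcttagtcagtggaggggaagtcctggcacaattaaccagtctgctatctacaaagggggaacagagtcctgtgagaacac
Ms4a7: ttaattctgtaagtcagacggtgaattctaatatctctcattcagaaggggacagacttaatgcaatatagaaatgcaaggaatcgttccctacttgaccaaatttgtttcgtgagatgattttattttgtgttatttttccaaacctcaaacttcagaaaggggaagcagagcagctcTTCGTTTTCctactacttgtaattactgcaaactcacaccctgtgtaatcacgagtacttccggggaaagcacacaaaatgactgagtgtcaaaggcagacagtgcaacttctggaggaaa
The ETS motif AGGAAGT was found at 2 places before Ms4a6b and 1 before Ms4a6c, against 9.35% of all 32851 promoters with a match. The interferon regulatory factor (IRF) motif GAAANNGAA was found once each before Ms4a6b, Ms4a6c and Ms4a7, against 8.56% of all promoters. The AP-1 motif TGANTCA, which reads alike on both strands, was found once in the Ms4a4b window, against 7.81% of all promoters. The C/EBP motif TTGCNNAA (10.8% of all promoters) was in none of these 5 windows, and Ms4a4c had no match to any of the 4 motifs. The window of the downstream Ms4a7 start, whose sequence is not given here, had an IRF match and an AP-1 match. A match is a stretch of letters and was not tested for binding.

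**Figure D1:**
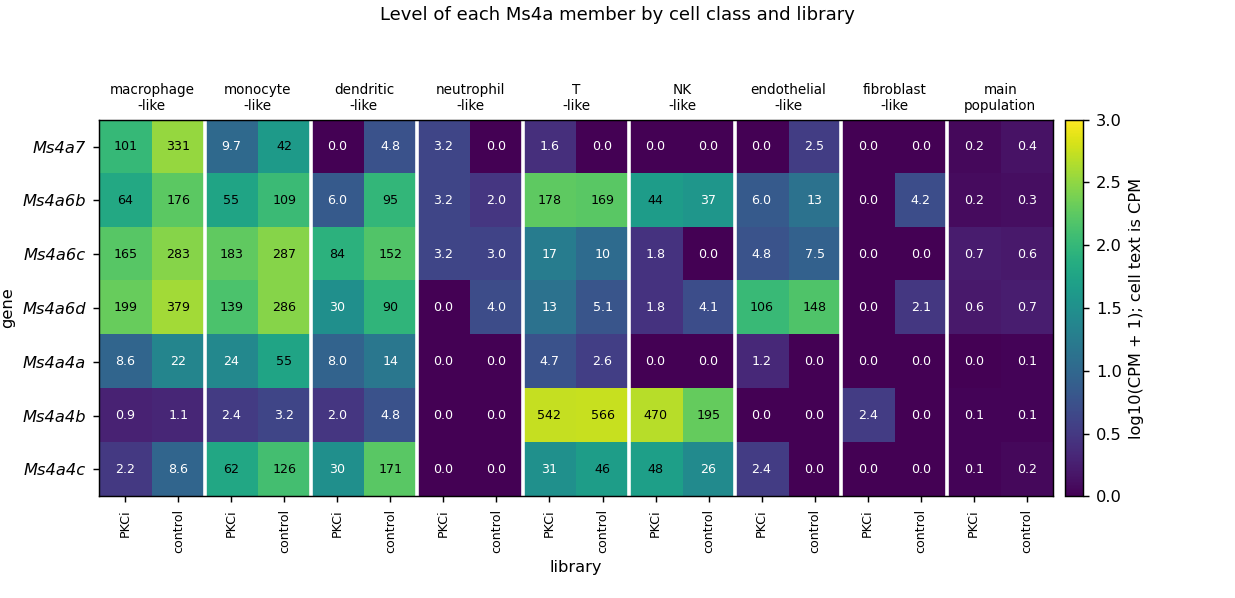
CPM of each of the 7 members (rows) in each cell class, with the PKCi library left and the control library right in each pair; colour is log10(CPM + 1) and the printed number is the CPM. Ms4a6c and Ms4a6d were high in macrophage-like and monocyte-like cells, Ms4a7 mainly in macrophage-like cells, and Ms4a4a was highest in monocyte-like cells. Endothelial-like cells also held Ms4a6d. Ms4a4b was high in T-like and NK-like cells, and Ms4a6b in both myeloid and T-like cells.

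The members fell into a myeloid and a lymphoid pattern, with Ms4a6b and Ms4a4c in both. Ms4a7, a gene of mature mouse macrophages, was the most restricted myeloid member. In macrophage-like cells it stood at 101 CPM (93.8 to 109) in the PKCi library and 331 CPM (313 to 350) in the control library. In monocyte-like cells it stood at 9.71 CPM in the PKCi library and 41.7 CPM in the control library. The macrophage-like level exceeded the monocyte-like level 10.4 times (7.61 to 14.7) in the PKCi library and 7.94 times (6.85 to 9.24) in the control library. Every other named class held at most 1 Ms4a7 UMI per library, and the main population 0.166 CPM in the PKCi library and 0.407 CPM in the control library. The size of the gap between both classes moved with the processing. In the control library its log2 value of 2.99 became 5.24 when called doublets were kept before clustering, a setting that left 269 control monocyte-like cells in place of 543.

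Ms4a6c and Ms4a6d are among the mouse relatives of human MS4A6A. Ms4a6c did not separate macrophage-like from monocyte-like cells: its monocyte-like level was 1.11 times (1.01 to 1.22) the macrophage-like one in the PKCi library and 1.01 times (0.93 to 1.10) in the control library. Dendritic-like cells came next, with 84.5 CPM in the PKCi library and 152 CPM in the control library, and all other classes were at 17.2 CPM or below. Ms4a6d, whose product pairs with the macrophage receptor VSIG4 in mouse, was modestly higher in macrophage-like than in monocyte-like cells, by 1.43 times (1.30 to 1.58) in the PKCi library and 1.32 times (1.23 to 1.43) in the control library. Endothelial-like cells also held Ms4a6d, at 106 CPM (84.8 to 130; 88 UMIs) in the PKCi library and 148 CPM (113 to 191; 59 UMIs) in the control library, and at most 5 UMIs of any other member. Those sums also held macrophage RNA. The 9 macrophage markers summed there to 162 CPM in the PKCi library and 354 CPM in the control library. In macrophage-like cells they summed to 12396 and 15670 CPM. C1qa, a macrophage complement gene, was at 31.2 CPM in endothelial-like cells of the PKCi library and 70.3 CPM in those of the control library. In macrophage-like cells it was at 2773 and 3002 CPM in the PKCi and control libraries. Neutrophil markers summed in endothelial-like cells to 14.4 CPM in the PKCi library and 248 CPM in the control library. The part of such RNA in the Ms4a6d values was not tested.

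Ms4a4a, whose product associates with the fungal receptor dectin-1 on macrophages, had its highest level in monocyte-like cells. The monocyte-like to macrophage-like ratio was 2.83 (2.03 to 3.99) in the PKCi library and 2.46 (1.91 to 3.19) in the control library. Ms4a4c, often listed among interferon-induced mouse genes, was a monocyte and lymphoid gene with little signal in macrophage-like cells. Its monocyte-like level exceeded the macrophage-like level 28.9 times (16.9 to 53.6) in the PKCi library and 14.6 times (10.2 to 21.7) in the control library. In the control library its dendritic-like level of 171 CPM and its monocyte-like level of 126 CPM did not differ beyond counting error.

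Ms4a4b, a T cell gene whose product associates with GITR (encoded by Tnfrsf18), was the lymphoid member. It stood at 542 CPM (486 to 602) in T-like cells of the PKCi library and 566 CPM (494 to 646) in those of the control library. NK-like cells held 470 CPM (415 to 530) in the PKCi library and 195 CPM (158 to 238) in the control library, and every other class 4.76 CPM or less. T-like and NK-like levels were not separated in the PKCi library, where their ratio was 1.15 (0.98 to 1.36), and were separated in the control library, at 2.90 (2.27 to 3.73). Ms4a6b crossed the lineages. Its T-like level was 178 CPM in the PKCi library and 169 CPM in the control library, and its NK-like level 44.3 CPM in the PKCi library and 36.6 CPM in the control library. In the PKCi library T-like cells exceeded macrophage-like cells 2.78 times (2.24 to 3.43), while in the control library macrophage-like and T-like cells did not differ beyond counting error, at a ratio of 1.04 (0.81 to 1.36).

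The pairs with the most similar promoters did not have the most similar class patterns. Over the 16 sums of 8 named classes in 2 libraries, Pearson's r of log2(CPM + 1) was 0.67 for Ms4a6b with Ms4a6c and 0.59 for Ms4a4b with Ms4a4c. By contrast, r was 0.96 for Ms4a6c with Ms4a4a, whose promoters were 63.5% identical. That identity lies within the 57.2% to 66.8% of all promoter pairs other than the most similar ones named above. The value of r was also 0.95 for Ms4a6c with Ms4a6d and 0.95 for Ms4a6d with Ms4a4a. No Ms4a6d promoter was on hand, so its pairs do not bear on the promoter comparison. These sums share 2 libraries and differ in depth, so the values are descriptions. Over the same sums, the genes most like Ms4a7 were the folate receptor gene Folr2 (r = 0.97), Rab5c (0.96) and Spic (0.95). Those most like Ms4a4b were Ikzf3 (0.98), Gpr174 (0.97) and Gimap3 (0.97). Ms4a6b was most like Lpxn (0.93), Ednrb (0.92) and Pou2f2 (0.91), and Ms4a4c most like Runx3 (0.92), Ccr2 (0.91) and Crybg1 (0.91). Ms4a6c was most like Ms4a4a (0.96), Tifab (0.95) and Pld4 (0.95), Ms4a6d most like Clec4a1 (0.96), Mmp12 (0.95) and Tifab (0.95), and Ms4a4a most like Ms4a6c (0.96), Ms4a6d (0.95) and Tifab (0.94).

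Macrophage-like cells of the PKCi library held less RNA of every member that could be measured. With at least 20 UMIs over both libraries required, 6 members were measured and all 6 were at least 1.5 times lower, against 7.42% of the 11246 genes measured in this class. Since the choice of members drew on this contrast, nothing is read from the count. Ms4a6c missed 1.5 times with cells assigned by markers alone (log2 ratio -0.53) and with clusters weighted alike (-0.38), and Ms4a4c with the stricter cell filter (-0.57) and with doublets kept (-0.58). The median log2 ratio (PKCi over control, 0.5 count added) was -1.42 for these 6 members and 0.03 for all measured genes. Ms4a7 had a ratio of 0.306 (0.278 to 0.337). Ms4a6b stood at 64.1 CPM in the PKCi library and 176 CPM in the control library, a ratio of 0.364 (0.321 to 0.412). Ms4a6c stood at 165 CPM in the PKCi library and 283 CPM in the control library, a ratio of 0.582 (0.534 to 0.635). Ms4a6d stood at 199 CPM in the PKCi library and 379 CPM in the control library, a ratio of 0.525 (0.487 to 0.567). Ms4a4a stood at 8.61 CPM in the PKCi library and 22.4 CPM in the control library. Ms4a4c stood at 2.15 CPM in the PKCi library and 8.58 CPM in the control library. Ms4a4b had 6 UMIs in the PKCi library and 4 in the control library, too few for a fold.

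**Figure D2:**
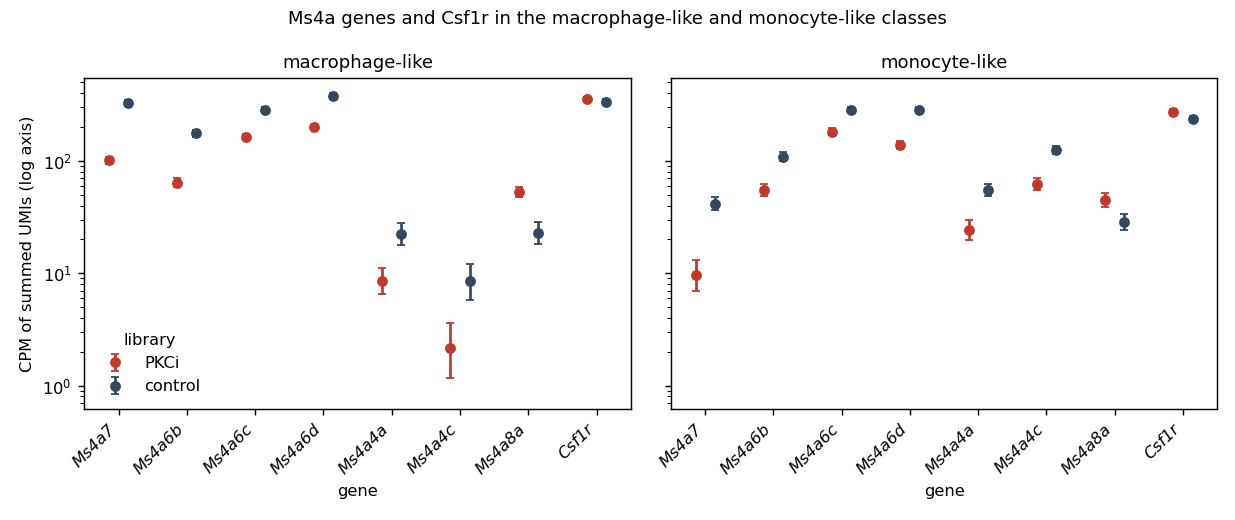
CPM (log axis) of 6 members, Ms4a8a and Csf1r in macrophage-like cells (left panel) and monocyte-like cells (right panel); points are the PKCi library (left of each pair) and the control library, and bars are exact 95% Poisson intervals. The 6 members were lower in the PKCi library in both classes, Ms4a8a was higher, and Csf1r was 355 and 338 CPM in the macrophage-like cells of the PKCi and control libraries.

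Genes that define the class were compared beside the members. The 9 macrophage markers summed to 12396 CPM in the PKCi library and 15670 CPM in the control library, with a median log2 ratio of -0.30. Among them C1qb had a ratio of 0.666 (0.648 to 0.683), Adgre1 of 0.703 (0.647 to 0.764) and Apoe of 0.741 (0.727 to 0.756). C1qa was closer to even, at 0.924 (0.902 to 0.946). Mertk (ratio 1.48, 1.30 to 1.69) and Cx3cr1 (1.36, 1.05 to 1.78) were higher in the PKCi library, and the rest of the 9 were lower. Csf1r, the receptor gene that macrophages need for survival, stood at 355 CPM in this class in the PKCi library and 338 CPM in the control library. Of 20 genes of resident or mature macrophages, 3 were at least 1.5 times lower and none was higher, with a median log2 ratio of -0.33. Over all measured genes of the class, 7.42% were lower and 11.8% higher by that much. The 3 were Pf4 (log2 ratio -1.27), Selenop (-0.70) and C1qb (-0.59). Trem2 stood at 316 CPM in the PKCi library and 427 CPM in the control library. Of 12 interferon-stimulated genes that could be measured, 3 were higher and none was lower, with a median of 0.23. Monocyte genes were split: 5 of 14 were lower and 4 higher.

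Other measured genes of the family were split: Ms4a8a and the related Tmem176a and Tmem176b were higher, and Ms4a14 was lower like the members. Ms4a8a, reported on alternatively activated mouse macrophages and lying at 11067471 to 11081102 on the same chromosome, stood at 53.1 CPM (47.6 to 59.0) in the PKCi macrophage-like cells and 23.0 CPM (18.3 to 28.5) in the control ones. Its ratio was 2.31 (1.81 to 2.97). The related genes Tmem176a and Tmem176b, on chromosome 6, had ratios of 2.91 (2.26 to 3.79) and 1.93 (1.64 to 2.28) in the same class. Ms4a14 was lower, with 28 UMIs in the PKCi library and 40 in the control library and a ratio of 0.389 (0.231 to 0.646). Those 4 were the only measured genes among the 14 other family genes: 3 were at least 1.5 times higher, against 11.8% of all measured genes, and 1 was lower. Ms4a1, the B cell gene, and Ms4a2, the mast cell gene for a chain of the IgE receptor, had no UMI in macrophage-like or monocyte-like cells of either library. Vsig4, the partner of Ms4a6d, was detected with 44 UMIs in PKCi macrophage-like cells and 1 in control ones.

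The share of cells with a UMI was compared as well. Macrophage-like cells were deeper in the control library (median 11814 UMIs in the PKCi library, 17024 in the control library), so cells were thinned to 5000 UMIs each, which left out 51 PKCi and 11 control cells. Ms4a7 was then detected in 32.1% (27.8 to 36.7) of 445 PKCi cells and 66.5% (59.1 to 73.3) of 182 control cells, with exact binomial intervals. Unthinned, the shares were 44.2% in the PKCi library and 79.8% in the control library. In the main population, where any Ms4a7 UMI is taken as background, the thinned share was 0.136% of 5131 PKCi cells and 0.0829% of 4827 control cells. Of the 6 myeloid members, none was detected in 21.6% (17.8 to 25.7) of thinned macrophage-like cells of the PKCi library and 5.49% (2.67 to 9.87) of those of the control library. At least 3 were detected in 28.1% (23.96 to 32.5) of PKCi cells and 58.8% (51.3 to 66.0) of control cells. In the PKCi library, thinned cells with a Ms4a7 UMI held 112 CPM of Ms4a6b, 281 CPM of Ms4a6c and 298 CPM of Ms4a6d, against 47.7, 129 and 168 CPM in cells without one. C1qa was also higher in those cells, at 3684 CPM against 2462 CPM. In the control library the values with and without a Ms4a7 UMI were 213 and 125 CPM for Ms4a6b, 304 and 252 CPM for Ms4a6c, 440 and 334 CPM for Ms4a6d and 3312 and 2082 CPM for C1qa. Ms4a4c ran the opposite way in the control library, at 6.61 CPM with and 32.8 CPM without.

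Macrophage-like cells formed 5 clusters when clustered again without Ms4a genes, and their sizes differed between libraries. Cluster 1 (176 PKCi, 38 control cells) was led by H2-Eb1 and Vcam1, cluster 2 (116 PKCi, 58 control) by Tiam2 and Cxcl5, cluster 3 (57 PKCi, 68 control) by Cd209f and Lyve1, and cluster 5 (47 PKCi, 26 control) by mitosis genes such as Prc1 and Plk1. The genes leading cluster 2 also included Apbb2, Ank3, Ppic, Hmga2, Tm4sf1 and Cald1. C1qa stood in cluster 2 at 2436 CPM in the PKCi library and 2598 CPM in the control library. Whether RNA of other cells entered its values was not tested. Cluster 4 (100 PKCi, 3 control), led by Vsig8 and Dcstamp, could not be compared between libraries. In the PKCi library it was lower than the other 4 clusters in Ms4a7 (3.31 CPM), Ms4a6b (5.30 CPM), Ms4a6c (39.7 CPM) and Ms4a6d (86.8 CPM). The family gene Ms4a8a was not low there, at 64.9 CPM. Ms4a7 was lower in the PKCi library in each of the other 4 clusters, with ratios of 0.432 in cluster 1, 0.269 in cluster 2, 0.750 in cluster 3 and 0.226 in cluster 5. Ms4a6b (ratios 0.363 to 0.659) and Ms4a6d (0.596 to 0.755) were likewise lower in all 4, with every interval below 1. Ms4a6c was lower in all 4 (0.619 to 0.929), with the interval below 1 in 2. Ms4a8a was higher in all 4 (1.69 to 3.90), with every interval above 1. Giving those 4 clusters equal weight, which also leaves out cluster 4, moved the log2 ratio of Ms4a7 to -1.12 from -1.71 in the pooled class.

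**Figure D3:**
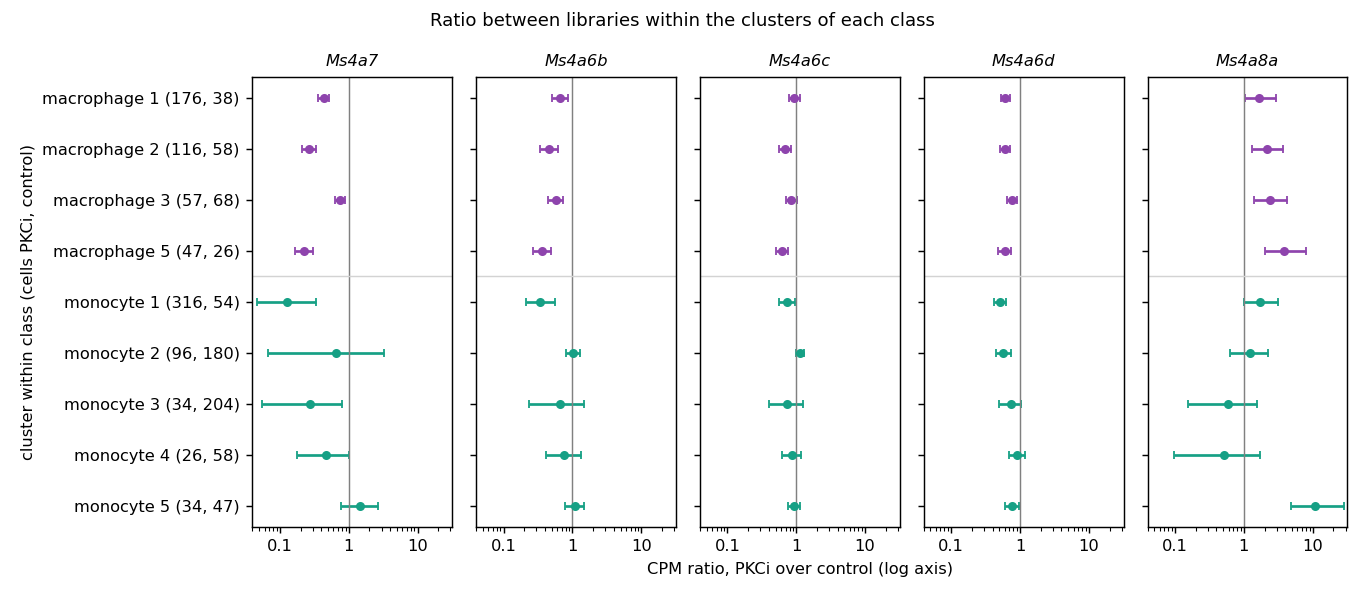
Ratio of CPM, PKCi over control (log axis, grey line at 1), of 5 genes within clusters of the macrophage-like class (purple, upper 4 rows) and the monocyte-like class (green, lower 5 rows); cells per library are given beside each cluster and bars are exact 95% intervals. Macrophage-like clusters lie below 1 for Ms4a7, Ms4a6b, Ms4a6c and Ms4a6d and above 1 for Ms4a8a, while monocyte-like clusters lie on both sides of 1 for all but Ms4a6d.

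Monocyte-like cells showed lower members in the pooled class and a mixed picture within clusters. In the pooled class 6 of 7 members were lower by 1.5 times or more, against 7.03% of 10687 measured genes, with a median log2 ratio of -1.01 against 0.17 for all measured genes. Ms4a7 had a ratio of 0.233 (0.162 to 0.327). Ms4a6d stood at 139 CPM in the PKCi library and 286 CPM in the control library, a ratio of 0.486 (0.441 to 0.536). Ms4a4a stood at 24.4 CPM in the PKCi library and 55.1 CPM in the control library, a ratio of 0.442 (0.349 to 0.556). Ms4a4c stood at 62.3 CPM in the PKCi library and 126 CPM in the control library, a ratio of 0.496 (0.428 to 0.574). Ms4a6b (55.2 CPM in the PKCi library, 109 CPM in the control library) and Ms4a6c (183 CPM in the PKCi library, 287 CPM in the control library) had ratios of 0.504 and 0.638. The exception was Ms4a4b, with 10 UMIs in the PKCi library and 16 in the control library. With the clusters of the class weighted alike, 1 member in place of 6 was at least 1.5 times lower.

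Among the monocyte-like clusters, cluster 1, led by Ccl17 and Car4, held 316 of the PKCi cells and 54 of the control cells. It was low in the family: in the PKCi library it had 15.4 CPM of Ms4a6b, 86.2 CPM of Ms4a6c and 12.1 CPM of Ms4a4c. Its ratios between libraries were 0.129 (0.046 to 0.335) for Ms4a7 and 0.339 (0.209 to 0.559) for Ms4a6b. They were 0.725 (0.559 to 0.948) for Ms4a6c and 0.511 (0.414 to 0.634) for Ms4a6d. The intervals of Ms4a4a (0.550, 0.234 to 1.435) and Ms4a4c (0.646, 0.329 to 1.360) reached past 1. No member had an interval wholly above 1 in any monocyte-like cluster. Cluster 2, led by Ace, Adgre4 and Ly6c2, held 96 PKCi and 180 control cells. It was high in Ms4a6b, Ms4a6c, Ms4a4a and Ms4a4c but low in Ms4a7, at 4.16 CPM in the PKCi library and 6.39 CPM in the control library. There Ms4a6b stood at 200 CPM in the PKCi library and 196 CPM in the control library, with a ratio of 1.02 (0.79 to 1.29). Ms4a4c stood at 262 CPM in the PKCi library and 260 CPM in the control library, with a ratio of 1.01 (0.81 to 1.24). Ms4a6c stood at 628 CPM in the PKCi library and 550 CPM in the control library, with a ratio of 1.14 (0.99 to 1.31). Ms4a6d was the exception in cluster 2, at 162 CPM in the PKCi library and 282 CPM in the control library, with a ratio of 0.576 (0.444 to 0.737). It was lower in all 5 clusters (0.511 to 0.910), with the interval below 1 in 3. The interferon-led cluster 5 (34 PKCi, 47 control cells) had the highest Ms4a4c of the 5 clusters in each library, 326 CPM in the PKCi library and 382 CPM in the control library. Ms4a8a stood in it at 156 CPM in the PKCi library and 14.4 CPM in the control library, with a ratio of 10.9 (4.85 to 28.6).

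Markers of other cells moved with the monocyte-like class as well. The summed level of the 8 neutrophil markers was 549 CPM in the PKCi library, with 1 marker at 0, and 1203 CPM in the control library, with none at 0. The 7 monocyte markers summed to 1815 CPM in the PKCi library and 2457 CPM in the control library, and they were split. Ly6c2 had a ratio of 0.421 (0.376 to 0.470), Plac8 of 0.423 (0.401 to 0.446) and Hp of 0.438 (0.376 to 0.509). F10 had a ratio of 0.740. The ratio was above even for Vcan (1.65), Ccr2 (1.23) and Chil3 (1.20). The 9 macrophage markers summed to 2349 CPM in the PKCi library and 2673 CPM in the control library. In macrophage-like cells the neutrophil markers summed to 1101 CPM in the PKCi library and 866 CPM in the control library. The part of these marker differences in the members' values was not tested.

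When the macrophage-like and monocyte-like cells were pooled and ordered by their C1qa, C1qb and C1qc UMIs after thinning, the members were compared within ranges of C1q. The cells of a range still differed in the monocyte gene Ly6c2, which stood at 181 CPM in PKCi cells and 387 CPM in control cells with no C1q UMI, and at 45.6 CPM in PKCi cells and 261 CPM in control cells with 1 to 4. At 20 or more C1q UMIs, Ms4a7 stood at 151 CPM in 360 PKCi cells and 407 CPM in 162 control cells, a ratio of 0.371 (0.315 to 0.437). In cells with no C1q UMI it stood at 4.15 CPM in 241 PKCi cells and 21.2 CPM in 349 control cells, a ratio of 0.196 (0.060 to 0.499). Ms4a6b, Ms4a6c and Ms4a6d were lower in the PKCi library in all 4 ranges of C1q, with every interval below 1 (ratios 0.263 to 0.496 for Ms4a6b, 0.435 to 0.745 for Ms4a6c and 0.322 to 0.555 for Ms4a6d). Ms4a4c ran the other way along the order, from 97.9 CPM with no C1q UMI to 5.0 CPM with 20 or more in the PKCi library, and from 187 to 22.2 CPM in the control library. Ms4a8a did not differ between libraries in cells with no C1q UMI, with a ratio of 1.02 (0.691 to 1.501), and was higher in the PKCi library at 20 or more, with a ratio of 3.15 (1.79 to 5.97). These ranges are cuts of a continuous count, and 104 of 820 PKCi cells and 41 of 657 control cells lay between 15 and 24 C1q UMIs.

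**Figure D4:**
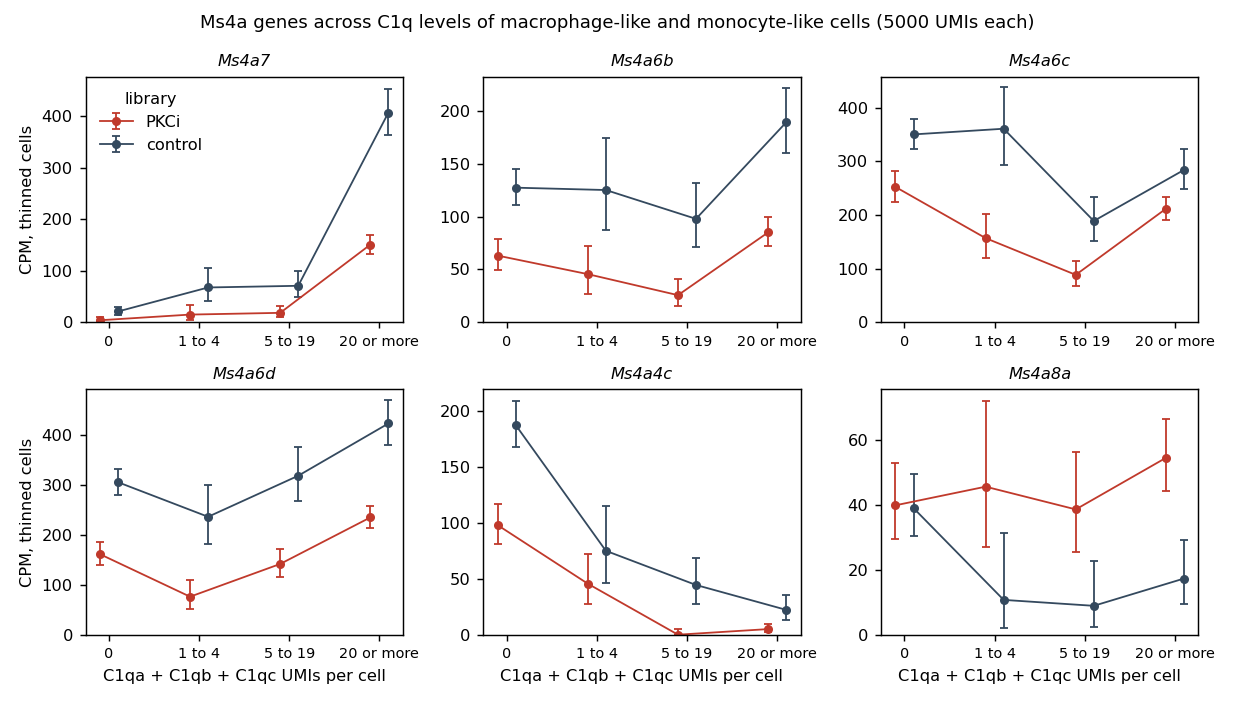
CPM of 6 genes in macrophage-like and monocyte-like cells thinned to 5000 UMIs, by the summed C1qa, C1qb and C1qc UMIs of the cell; red is the PKCi library, dark blue the control library, and bars are exact 95% Poisson intervals. Ms4a7, Ms4a6b, Ms4a6c and Ms4a6d lie lower in the PKCi library in every C1q range, and Ms4a8a lies higher in the 3 ranges with C1q.

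Dendritic-like cells were few, 49 in the PKCi library and 22 in the control library. Ms4a4c stood at 30.2 CPM (16.9 to 49.8) in the PKCi library and 171 CPM (120 to 237) in the control library, a ratio of 0.176 (0.090 to 0.330). Ms4a6b had 3 UMIs in the PKCi library and 20 in the control library, a ratio of 0.063 (0.012 to 0.214). All 4 members measured in this class were at least 1.5 times lower, against 15% of 4731 measured genes. When cells were assigned by markers alone, Ms4a6b and Ms4a6c were higher in the PKCi library. Their log2 ratios were then 1.01 and 1.19 in place of -3.79 and -0.85. Over the alternatives Ms4a6b, Ms4a6c and Ms4a6d had 9 values each, fewer than the 11 of Ms4a4c. A setting that left a gene without any UMI in this class gave no value. No direction is therefore drawn for these members in dendritic-like cells.

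Lymphoid classes gave other values. In T-like cells the Ms4a4b ratio was 0.956 (0.806 to 1.137) and the Ms4a6b ratio 1.055 (0.773 to 1.451), and neither of these nor Ms4a4c passed 1.5 times in either direction. Of all 6329 measured genes, 9.72% were at least 1.5 times lower and 13.1% at least 1.5 times higher. Ms4a4c, with 20 UMIs in the PKCi library and 18 in the control library, had a log2 ratio of -0.56, which became -1.97 in thinned cells and -0.33 with doublets kept. In T-like cluster 1 its ratio was 0.291 (0.113 to 0.699). After thinning, Ms4a4b was detected in 76.7% (61.4 to 88.2) of 43 PKCi cells and 78.6% (59.0 to 91.7) of 28 control cells, and unthinned in 68.1% of PKCi cells and 64.1% of control cells. The Ms4a4b log2 ratio of -0.07 became -0.34 in thinned cells and 0.18 as a mean over cells.

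Within the T-like class Ms4a4b differed between kinds of T cell. Cluster 2, led by Foxp3, the gene of regulatory T cells, held the least, with 116 CPM in the PKCi library and 105 CPM in the control library. Cluster 1, led by Tcf7 and S1pr1 among others, held 801 CPM in the PKCi library and 694 CPM in the control library, with a ratio of 1.15 (0.88 to 1.53). Cluster 3, led by granzyme genes such as Gzmd, held 581 CPM in 36 PKCi cells and 1006 CPM in 13 control cells, with a ratio of 0.577 (0.454 to 0.735). Split instead by a UMI of Cd8a or Cd8b1, cells with one held 659 CPM in the PKCi library and 931 CPM in the control library (ratio 0.71, 0.58 to 0.87). Cells without one held 413 CPM in the PKCi library and 242 CPM in the control library (ratio 1.71, 1.22 to 2.42). Macrophage RNA moved with the T-like class: C1qa stood at 98.6 CPM in the PKCi library and 5.12 CPM in the control library, and in cluster 3 at 201 and 7.86 CPM in the PKCi and control libraries. The 9 macrophage markers summed to 427 CPM in T-like cells of the PKCi library, with none at 0, and 61.5 CPM in those of the control library, with 1 at 0. Their part in the Ms4a4b values was not tested. Ms4a4b itself had 6 UMIs in 496 macrophage-like PKCi cells.

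In NK-like cells Ms4a4b was higher in the PKCi library, with a ratio of 2.41 (1.90 to 3.07), and Ms4a4c had 27 UMIs in the PKCi library and 13 in the control library, a ratio of 1.81 (0.90 to 3.82). They were 2 of 3 members measured that were at least 1.5 times higher, against 17.2% of 5788 measured genes. None was lower, against 9.78% of those genes. After thinning, Ms4a4b was detected in 73.2% (57.1 to 85.8) of 41 PKCi cells and 39.1% (19.7 to 61.5) of 23 control cells. Unthinned, it was detected in 88.0% of 50 PKCi cells and 47.2% of 36 control cells. The log2 ratio was 1.26 over whole cells and 0.61 over thinned cells, a drop of over 1.5 times. Summed T cell markers in the NK-like class were 136 CPM in the PKCi library, with 3 of 8 at 0, and 382 CPM in the control library, with 2 at 0.

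**Figure D5:**
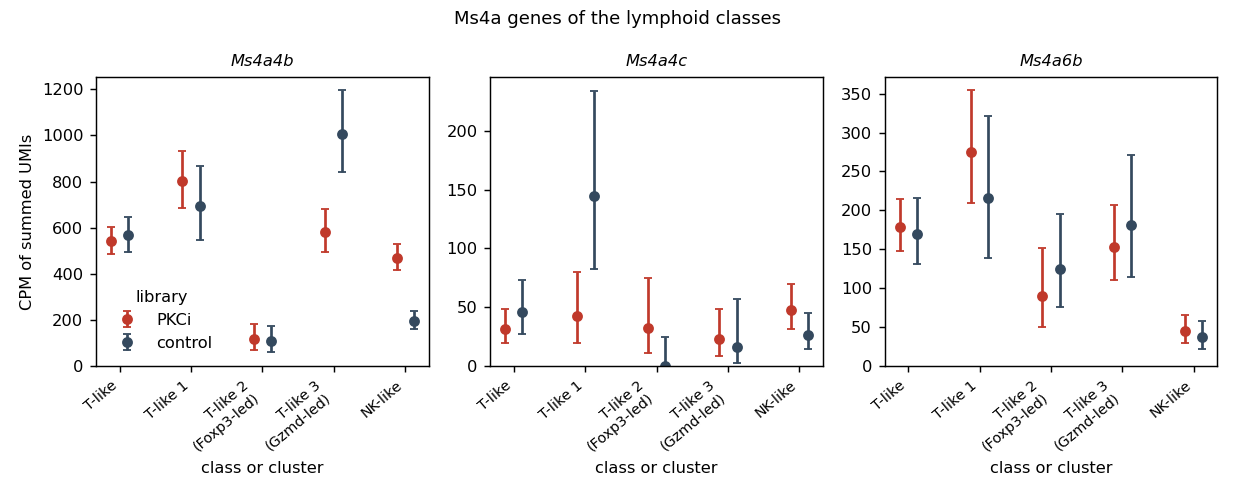
CPM of Ms4a4b, Ms4a4c and Ms4a6b in the T-like class, in its 3 clusters and in the NK-like class, for the PKCi library (red, left of each pair) and the control library (dark blue); bars are exact 95% Poisson intervals. Ms4a4b was lowest in the Foxp3-led cluster in both libraries and was separated between the libraries in cluster 3 and in NK-like cells.

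A gene between Ms4a6b and Ms4a6d on the chromosome had a pattern of its own. Ms4a4d, at 11536801 to 11558467 on the plus strand, was at 138 CPM in 25 fibroblast-like cells of the PKCi library and 60.2 CPM in 24 of the control library, with 57 UMIs in the PKCi library and 29 in the control library. Its ratio there was 2.28 (1.44 to 3.70), and it had at most 1 UMI in each macrophage-like and monocyte-like sum. The 7 members were at 4.15 CPM or less in fibroblast-like cells, and neutrophil-like cells held at most 4 UMIs of any member in either library.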

How the data were processed

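Droplet 3' single-cell RNA libraries (v3.1 chemistry) were prepared from dissociated tumours, per the labels' protocols. The authors deposited raw UMI counts per gene and barcode, made with Cell Ranger 7.0.0 per the file headers and with GRCm38 per the submitters' processing notes. Gene positions came from an annotation of the same build.

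From these counts, cells with at least 500 genes and at most 20% mitochondrial UMIs were kept. Barcodes with a Scrublet score over 0.25 in scanpy 1.11.5 (2.97% in the PKCi library, 2.37% in the control library) were left out, since the automatic threshold marked almost none in the control library. Leiden clusters (2000 variable genes, 30 components, resolution 1) were made and named from marker lists without Ms4a genes, which the earlier processing of these data had used to name macrophages. A marker score of 0.3 named a cluster, set after the data were seen, and 239 PKCi and 180 control cells stayed unnamed. Clusters within a class used resolution 0.5.

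UMIs were summed per class and library. Members of every named class were described, with other family genes, the 3 genes most like each member and marker lists. A gene counted as lower or higher at 1.5 times with 0.5 count added, over genes with at least 20 UMIs. The members and lists were chosen with earlier results of these data known. With 1 library per treatment no test was made. Interval functions were tested on simulated data. Python 3.11.15, scipy 1.17.1 and, for TMM factors, edgeR 4.0.16 were used.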

Additional observations from a re-analysis of the deposited data

How the results depend on the processing

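Under 12 alternatives, 279 of 285 log2 ratios kept their direction over 25 ratios of members and of Ms4a8a. Some alternatives, such as 1 count added or TMM scaling, reused the same cells and sums and could hardly reverse a ratio. Settings that left a gene without any UMI in a class gave no ratio and are not among the 285. Little is therefore read from that count. A kept direction does not mean a kept size. In monocyte-like cells the log2 ratio ranged from -1.99 to -0.10 for Ms4a6b and from -1.42 to -0.05 for Ms4a6c. It ranged there from -2.25 to -0.19 for Ms4a4c and from -1.64 to -0.24 for Ms4a4a. No paired analysis was possible because each treatment has 1 library and the labels give no replicate numbers. The log2 ratio of Ms4a7 in macrophage-like cells (-1.71) was -1.42 with cells assigned by markers alone, -1.55 with doublets kept and -1.12 with clusters weighted alike. Ms4a6b in the same class (-1.46) was -1.15, -1.24 and -0.97 under the same 3 alternatives. The control log2 ratio of Ms4a7 between macrophage-like and monocyte-like cells (2.99) was 4.51 at resolution 0.5, 4.72 by markers alone, 4.22 with the stricter cell filter, 5.24 with doublets kept, 3.48 in thinned cells and 3.49 as a mean over cells. In T-like cells Ms4a4b (-0.07) was -0.34 in thinned cells and 0.18 as a mean over cells, and Ms4a6b (0.07) was -0.12 in thinned cells and -0.02 with clusters weighted alike. The count of lower members in monocyte-like cells fell to 1 with clusters weighted alike. In dendritic-like cells Ms4a6b (-3.79) reversed to 1.01 by markers alone, and Ms4a6c (-0.85) to 1.19 by markers alone and 0.10 with Ms4a genes in the clustering. Other values moved beyond their counting interval in 53 cases. The cause was not tested, but several settings change class sizes: the stricter filter left 278 control monocyte-like cells in place of 543. The genes most like each member were the same 21 of 21 without a UMI minimum. Depth limits neutrophil-like and T-like values: 1 of 145 PKCi and 54 of 265 control neutrophil-like cells, and 43 of 119 PKCi and 28 of 64 control T-like cells, reached 5000 UMIs.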
